A study of Mus musculus with 52 samples.

Results

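The 10 immediate early genes described here were Fos, Fosb, Jun, Junb, Egr1, Atf3, Ier2, Nr4a1, Dusp1 and Zfp36. They were taken by name, and each was measured as the sum over its transcripts in all 40 RNA-seq libraries of the series. They are 10 of 49585 annotated genes and 10 of 21885 protein-coding genes. All 10 passed the filter on low counts in each fit used below. On GRCm38 the 2 AP-1 genes of the Fos family lie at chr12:85473890-85477273 (Fos) and chr7:19302696-19310051 (Fosb), those of the Jun family at chr4:95049034-95052222 (Jun) and chr8:84974484-84978718 (Junb), and Atf3 at chr1:191170296-191218039. Egr1 lies at chr18:34859823-34864984, Nr4a1 at chr15:101254269-101274795, Ier2 at chr8:84661331-84662852, Dusp1 at chr17:26505590-26562128 and Zfp36 at chr7:28376784-28380253. Exons of Jun, Junb, Dusp1 and Zfp36 (4 of 10) overlap exons of Junos, Prdx2, Ergic1 and Gm44710 on the other strand, and the library kit does not mark strand, so reads of these pairs may not be told apart. The question for these genes was how their level, and their summed share of protein-coding RNA, differed between the method that made the RNA, the tissue, the fraction and the genotype.

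The study asked how beta-catenin signaling in vascular endothelial cells (ECs) controls barrier gene expression in tissues with permeable and with tight capillaries. Sorted libraries came from cerebellum, anterior pituitary and posterior pituitary of adult male mice that were dissociated with papain and separated by fluorescence-activated cell sorting into GFP-positive cells (ECs, marked by the Tie2-GFP transgene) and GFP-negative cells (all other live cells). RiboTag libraries came from cortex and choroid plexus that were snap-frozen and homogenised without dissociation. HA-tagged ribosomes of ECs were then precipitated (bound RNA), and an aliquot of the homogenate was kept as input RNA. WT mice for sorting carried Tie2-GFP alone, and the stabilized mice carried Tie2-GFP, Pdgfb-CreER and the BcatEx3fl allele, whose exon 3 is removed by Cre in ECs, and received 100 µg of 4-hydroxytamoxifen on day 10. In the sorted series, the Cre transgene, the drug and the allele therefore go together and cannot be told apart. WT and stabilized cells were also separate preparations, so a difference in dissociation or sorting cannot be told apart from genotype. WT mice for RiboTag carried the RiboTag allele and Pdgfb-CreER, and the stabilized mice carried BcatEx3fl in addition. Both RiboTag genotypes had been injected with 4-hydroxytamoxifen weeks before. The pituitaries of 20 to 30 mice aged P30 to P90 were pooled for each sorted replicate, the RiboTag mice were 6 to 8 weeks old, and choroid plexi of 3 to 4 animals were pooled. There were 20 groups of 2 libraries each. A transcript sum does not show the loss of exon 3, so the targeted allele was not checked here.

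Immediate early genes are switched on within minutes of a stimulus without new protein synthesis, and their short-lived transcripts fall again soon after. Serum response factor, CREB and their kinase pathways switch them on, and the products form AP-1 (the FOS and JUN proteins), act as other transcription factors (EGR1, ATF3, NR4A1), or switch the response off, as DUSP1 does by dephosphorylating MAP kinases and ZFP36 does by destabilising AU-rich mRNAs. They are known to respond to tissue dissociation, to neuronal activity and, in ECs, to growth factors and flow.

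The promoters of 4 of the genes are shown because they hold a CREB and ATF element or a serum response element. They are the 250 bases before the transcription start (RefSeq, GRCm38), on the strand of the gene. Of the 10 genes, 8 were matched in the promoter table, and Egr1 and Ier2 were not. Capitals mark the CREB and ATF element TGACGT (or its reverse complement ACGTCA), its full form TGACGTCA and, for Zfp36, the serum response element, all searched on both strands. The Fos window lies at chr12:85473640-85473889 on the plus strand, and the Dusp1 window at chr17:26508473-26508722, the Atf3 window at chr1:191183334-191183583 and the Zfp36 window at chr7:28379229-28379478 lie on the minus strand.

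Fos: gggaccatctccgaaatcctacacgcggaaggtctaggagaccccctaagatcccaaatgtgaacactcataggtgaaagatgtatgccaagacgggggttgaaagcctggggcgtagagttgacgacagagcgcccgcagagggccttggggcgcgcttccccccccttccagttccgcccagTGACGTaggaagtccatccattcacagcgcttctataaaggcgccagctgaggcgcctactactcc

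Dusp1: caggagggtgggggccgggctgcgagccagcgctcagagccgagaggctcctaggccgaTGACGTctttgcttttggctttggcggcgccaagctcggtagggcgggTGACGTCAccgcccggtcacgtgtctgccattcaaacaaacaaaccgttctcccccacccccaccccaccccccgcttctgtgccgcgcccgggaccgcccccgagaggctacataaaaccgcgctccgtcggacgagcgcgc

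Atf3: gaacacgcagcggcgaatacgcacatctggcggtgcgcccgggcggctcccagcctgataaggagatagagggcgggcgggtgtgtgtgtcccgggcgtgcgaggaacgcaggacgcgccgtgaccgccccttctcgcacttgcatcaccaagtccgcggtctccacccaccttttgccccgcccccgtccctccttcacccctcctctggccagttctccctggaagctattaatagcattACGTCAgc

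Zfp36: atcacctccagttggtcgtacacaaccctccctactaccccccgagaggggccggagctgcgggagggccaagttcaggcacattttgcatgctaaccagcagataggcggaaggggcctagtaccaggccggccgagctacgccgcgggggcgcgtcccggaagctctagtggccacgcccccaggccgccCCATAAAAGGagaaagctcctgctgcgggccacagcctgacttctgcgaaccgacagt

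In Fos the TGACGT lies at -66 to -61, and a TATAAA (in lower case) lies at -33 to -28. Dusp1 holds TGACGT at -191 to -186 and the full TGACGTCA at -143 to -136, which contains the shorter letters on each strand. Atf3 holds ACGTCA at -8 to -3, and Zfp36 holds CCATAAAAGG, a serum response element, at -58 to -49. TGACGT stood in 3 of the 8 promoters and in 6.50% of the 32536 promoters of the table, TGACGTCA in 1 and 1.56%, the serum response element in 1 and 1.48%, and TATAAA in 1 and 12.3%. The AP-1 letters TGACTCA and the EGR letters GCGTGGGCG were in none of the 8 windows and in 4.45% and 0.541% of all promoters. These matches describe the letters of the windows only.

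The 24 sorted libraries held 12157485 to 37529274 estimated counts and the 16 RiboTag libraries 6409013 to 21399125, of which 1090 to 410535 and 498 to 15438 fell in the 10 genes. The share of all TPM in protein-coding genes was 53.5% to 62.2% in the 4 WT cortex RiboTag libraries, 18.2% to 26.6% in the other 12 RiboTag libraries and 36.1% to 65.1% in the sorted libraries, and this is why shares below are of protein-coding TPM. Endothelial markers, summed over 10 genes, reached 2051 to 7202 TPM in GFP-positive cells and 3.28 to 34.9 in GFP-negative cells, and 492 to 1554 in bound and 20.2 to 57.9 in input RNA. Of the hormone genes in the GFP-negative cells, Gh and Prl were high in anterior pituitary, and in posterior pituitary Pomc was at 27436 to 55689 TPM while Gh was at 0.687 to 12.8. One library named stabilized anterior pituitary in its title has posterior pituitary in another label and was taken as anterior, as titled. No tissue was measured by both methods, so that the method, the tissue and the mouse line cannot be told apart in any comparison of sorted with RiboTag RNA. In bulk RNA, fewer cells of a type and less RNA per cell cannot be told apart.

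The summed share of the 10 genes spanned a wide range. It was highest in WT anterior pituitary ECs, at 0.577% and 0.776% of protein-coding TPM, and lowest in WT choroid plexus input RNA, at 0.00349% and 0.00370%. The median was 0.175% over the 24 sorted libraries and 0.0170% over the 16 RiboTag libraries. In WT libraries the medians were 0.320% in sorted ECs (0.0240% to 0.776%, n = 6), 0.459% in GFP-negative cells (0.0206% to 0.544%, n = 6), 0.0252% in bound RNA (0.0153% to 0.0946%, n = 4) and 0.0162% in input RNA (0.00349% to 0.0315%, n = 4). The input median lies in the gap between 2 choroid plexus and 2 cortex libraries, and leaving out 1 library moves it to 0.00370% or 0.0287%. The WT sorted and RiboTag ranges overlapped through the cerebellum, whose second EC library (0.0240%) and both GFP-negative libraries (0.0638% and 0.0206%) lay among the WT RiboTag values.

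Within groups the 2 libraries often differed. WT cerebellum ECs had a share of 0.222% in replicate 1 and 0.0240% in replicate 2, and WT posterior pituitary ECs had 0.417% and 0.177%. The first WT cerebellum libraries of both fractions were also the richer ones in 5 erythrocyte markers, summed to 65218 TPM against 7177 in ECs and to 20722 against 237 in GFP-negative cells, and the part of this in the result was not tested. In RiboTag RNA, the first WT cortex bound library had 0.0946% and the second 0.0282%, and the first stabilized choroid plexus bound library had 0.0740% and the second 0.0263%. In the order of the 20 group means, neighbouring groups did not overlap at 6 steps only. These were the 3 steps below WT anterior pituitary ECs (mean 0.676% ± 0.140, SD, n = 2), WT posterior pituitary GFP-negative cells (0.524% ± 0.0284) and WT anterior pituitary GFP-negative cells (0.459% ± 0.00613), and the 3 below WT cortex input RNA, stabilized cerebellum ECs and stabilized cerebellum GFP-negative cells.

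**Figure D1:**
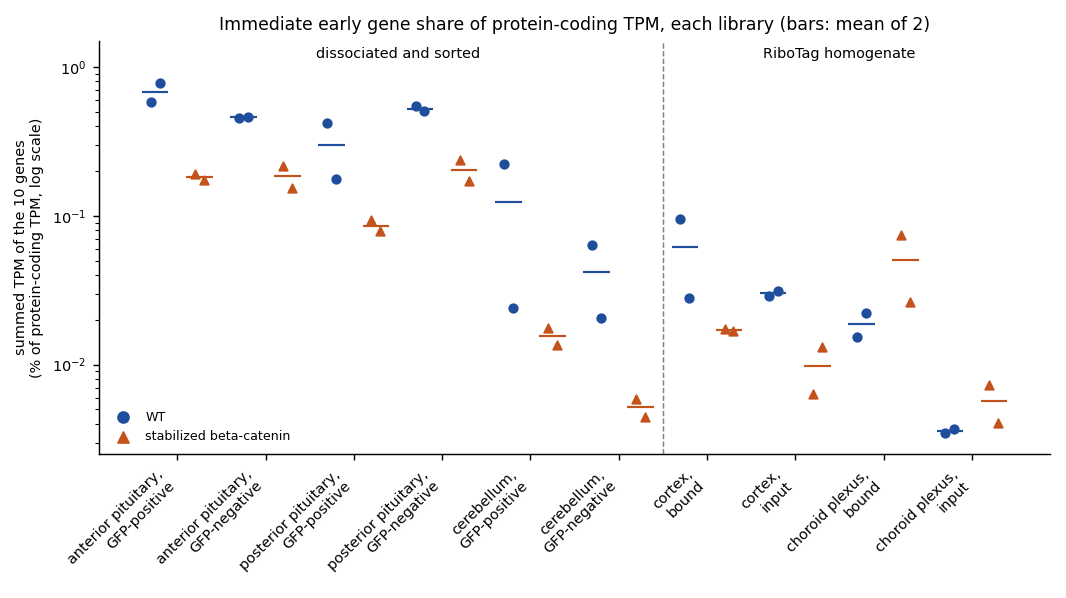
Summed TPM of the 10 immediate early genes as a percent of protein-coding TPM (vertical axis, log scale) in each of the 40 libraries, by tissue and fraction, with WT as circles, stabilized beta-catenin as triangles and a bar at each mean of 2. The WT anterior pituitary libraries of both fractions and the WT posterior pituitary GFP-negative libraries sit highest, between 0.455% and 0.776%, and each WT group lies above its stabilized partner except in choroid plexus.

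The genes that made up the share differed between libraries. As a mean over the 12 libraries of a fraction, the AP-1 gene Fos gave 32.3% of the share in GFP-negative cells (10.2% to 53.0%) and 22.6% in sorted ECs (9.71% to 30.6%). Jun gave 16.9% in sorted ECs (8.23% to 30.6%) and 7.53% in GFP-negative cells (1.94% to 27.6%). The orphan nuclear receptor gene Nr4a1 gave 7.37% in sorted ECs (0.0364% to 14.1%). In WT GFP-negative cells it gave 4.77% and 7.06% in cerebellum and 22.5% and 38.5% in posterior pituitary. In input RNA the tissues differed, as Egr1 gave 35.1% and 34.5% in WT cortex and 11.7% and 8.67% in WT choroid plexus, where Dusp1 gave 24.9% and 25.9%. In bound RNA Dusp1 and Jun each gave a mean of 18.1% over 8 libraries (8.66% to 29.8% and 8.96% to 25.2%). Across the 40 libraries, each gene's log2(TPM + 1) followed the mean of the other members with a Pearson r of 0.903 (Nr4a1) to 0.966 (Fos). This is a description over libraries that share tissue, method and depth.

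**Figure D2:**
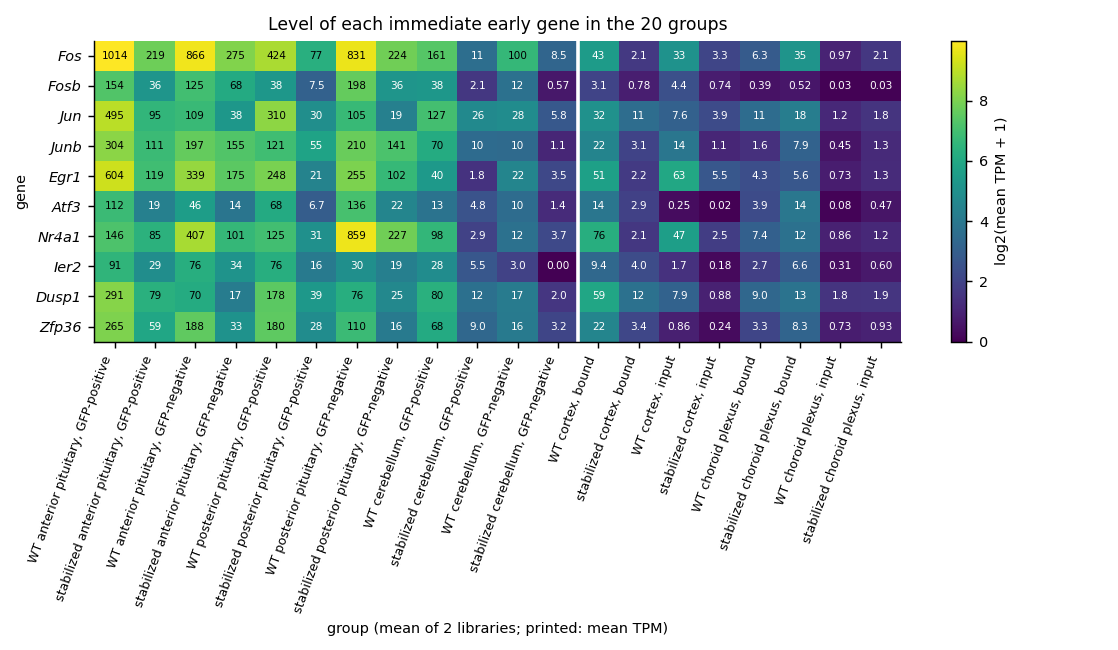
Heat map of the 10 genes (rows) in the 20 groups (columns), coloured by log2(mean TPM + 1) with the mean TPM of 2 libraries printed, sorted groups left of the white line and RiboTag groups right of it. Fos is the member with the highest level in WT anterior pituitary ECs, at 789.7 and 1238 TPM in its 2 libraries.

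In WT mice, 9 of the 10 genes were called higher in sorted ECs than in RiboTag-bound RNA. A gene was called where its Benjamini-Hochberg adjusted p in edgeR's quasi-likelihood test was below 0.05 and its fold at least 2. In parentheses below, a log2 fold change ± SE is followed by its adjusted p. Of all 23291 genes tested, 26.0% were called in either direction, 1736 of them higher and 4309 lower in sorted ECs. The median log2 difference was 3.40 over the members and -0.27 over all genes. Markers of other cells moved with this comparison. In the 4 WT bound libraries, microglia and macrophage markers summed to 84.5 to 2327 TPM against 0.617 to 13.8 in the 6 WT sorted EC libraries (7 of 10 above in every bound library). Neuron markers reached 1681 TPM in bound RNA against 37.6 at most in sorted ECs, and choroid plexus epithelium markers 20273 against 69.6. Erythrocyte markers were higher in sorted ECs, at 1350 to 65218 TPM in WT libraries against 135 to 724 in WT bound RNA. Mural markers were too, at 41.7 to 652 TPM against 7.73 to 41.9 over both genotypes. The part of these in the result was not tested.

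Among the AP-1 genes, Fos ranged over 12.2 to 1238 TPM (median 459.7) in the 6 WT sorted EC libraries, and it was at 70.0 and 16.2 in cortex and 6.89 and 5.74 in choroid plexus in bound RNA. All the sorted libraries but the second from cerebellum were above every bound library. The log2 fold change was 5.02 ± 0.66 (SE, adjusted p = 1.14e-06). Fosb, a close relative of Fos, was at 2.73 to 187 TPM (median 66.6) in sorted ECs and at 3.0 and 3.29 in cortex and 0.458 and 0.323 in choroid plexus in bound RNA, with a difference of 5.86 ± 0.68 (1.55e-07), the largest of the 10. Again only the second cerebellum library, at 2.73 TPM, lay within the bound range. Jun was at 22.3 to 573 TPM (median 324) against 49.8 and 13.9 in cortex and 8.08 and 13.2 in choroid plexus (3.46 ± 0.47, 2.14e-06), and its second cerebellum value of 22.3 lay below the first cortex bound library. Junb was at 16.8 to 321 TPM (median 157) against 30.7 and 12.4 in cortex and 0.751 and 2.50 in choroid plexus (3.79 ± 0.59, 1.41e-05), with the same overlap. Atf3, which encodes a stress-induced partner of JUN proteins, was at 2.17 to 131 TPM (median 58.8) against 26.5 and 1.93 in cortex and 4.16 and 3.62 in choroid plexus (2.89 ± 0.71, 0.00221), and its first cortex bound library was above the first and second cerebellum EC libraries and the second from posterior pituitary.

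Of the zinc finger and nuclear receptor genes, Egr1 was at 10.5 to 693 TPM (median 248) in sorted ECs and at 56.5 and 44.5 in cortex and 2.93 and 5.68 in choroid plexus in bound RNA (3.34 ± 0.52, 1.29e-05). Its cortex values lay above the second cerebellum library and below the other 5. Nr4a1 was the exception. It was at 8.62 to 206 TPM (median 146) in sorted ECs, and its first cortex bound library, at 115 TPM, exceeded the second libraries of cerebellum and posterior pituitary. Its difference of 1.37 ± 0.63 did not pass the threshold (adjusted p = 0.110).

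The genes that limit the response were higher in sorted ECs as well. Dusp1, the phosphatase gene, was at 20.5 to 343 TPM (median 190.2) in sorted ECs and at 104 and 13.4 in cortex and 6.75 and 11.2 in choroid plexus in bound RNA (2.35 ± 0.45, 0.000189). Zfp36, the mRNA decay factor gene, was at 13.2 to 319.7 TPM (median 166) against 37.9 and 6.32 in cortex and 2.93 and 3.64 in choroid plexus (3.76 ± 0.65, 4.83e-05). For Dusp1 the second cerebellum and the second posterior pituitary library, and for Zfp36 the second cerebellum library, lay below the first cortex bound library. Ier2, a nuclear protein gene of the same rapid class, was at 13.2 to 111 TPM (median 65.2) against 12.2 and 6.55 in cortex and 2.07 and 3.30 in choroid plexus (2.94 ± 0.48, 3.02e-05). It was the 1 member whose 6 sorted libraries all lay above the 4 bound libraries, and 5.09% of 12800 genes with a mean of at least 1 TPM had such a pattern. These 9 calls held in each of 26 settings tried.

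The nearest match of tissues, WT cerebellum ECs against WT cortex bound RNA, gave fewer calls. Fos (2.74 ± 0.85, adjusted p = 0.0285), Fosb (3.82 ± 0.87, 0.00283), Jun (2.19 ± 0.66, 0.0223) and Ier2 (2.02 ± 0.68, 0.0458) were called higher in the sorted cells, 4 of 10 where 14.4% of all genes were called. Egr1 differed by -0.09 (1.0). Without the first WT cerebellum EC library 0 of the 10 genes were called, and Fos and Jun were then lower in the sorted cells (-0.15 and -0.25). Without the second WT cortex bound library 1 gene was called, and with only the 2 groups in the fit 0 were called. A gene length offset left 2. The call of Ier2 held in 13 of 26 settings, and those of the other 3 genes in 22 to 24. DESeq2 called 6, and 6 had an unadjusted p under 0.05 in the fit given. All 8 neuron markers, 10 microglia and macrophage markers and 5 oligodendrocyte markers were higher in the cortex bound libraries, and their part in the result was not tested.

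All 10 genes were higher in WT GFP-negative cells than in WT input RNA, where 12.7% of genes were called (915 higher and 2038 lower). The median difference was 3.78 over the members and -0.11 over all genes. Fosb led with 6.78 ± 0.73 (3.90e-07). It was at 5.50 to 224 TPM (median 125) in the sorted cells and at 4.44 and 4.43 in cortex and 0.0538 and 0.0123 in choroid plexus in input RNA, where the choroid plexus values rest on 7 and 2 reads. Atf3 followed with 6.75 ± 0.90 (6.27e-06), from 3.36 to 168 TPM (median 46.0) against 0.278 and 0.222 in cortex and 0.0736 and 0.0833 in choroid plexus, or 6 to 9 reads in each input library. Fos was at 41.3 to 1006 TPM (median 712) against 34.6 and 31.7 in cortex and 0.968 and 0.973 in choroid plexus (5.78 ± 0.69, 1.71e-06), and its sorted libraries all exceeded the input libraries. Zfp36 was at 9.60 to 199 TPM (median 103) against 0.996 and 0.721 in cortex and 0.693 and 0.759 in choroid plexus (5.67 ± 0.72, 3.62e-06), also without overlap.

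The other differences from input RNA were 3.78 ± 0.52 for Ier2, 3.78 ± 0.60 for Junb, 3.70 ± 0.48 for Jun, 3.59 ± 0.53 for Egr1, 3.01 ± 0.69 for Nr4a1 and 2.60 ± 0.46 for Dusp1, with adjusted p of 0.00312 (Nr4a1) or less. Nr4a1 and Egr1 were the members with high input levels, at 40.8 and 53.9 and 57.4 and 67.6 TPM in cortex, and they overlapped the cerebellum GFP-negative libraries, at 16.7 and 7.92 and 34.4 and 10.4. For 6 genes (Fos, Fosb, Jun, Atf3, Dusp1 and Zfp36) every sorted library lay above every input library, a pattern that 3.39% of 12800 genes showed. The 10 calls held in each of 26 settings. Over both genotypes, pituitary endocrine markers reached 60580 TPM in GFP-negative cells against 26.2 in input RNA, and erythrocyte markers 20722 against 426. Choroid plexus epithelium markers reached 41635 TPM in input RNA against 3734 in GFP-negative cells, and neuron markers 2693 against 873. The part of these markers in the result was not tested.

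**Figure D3:**
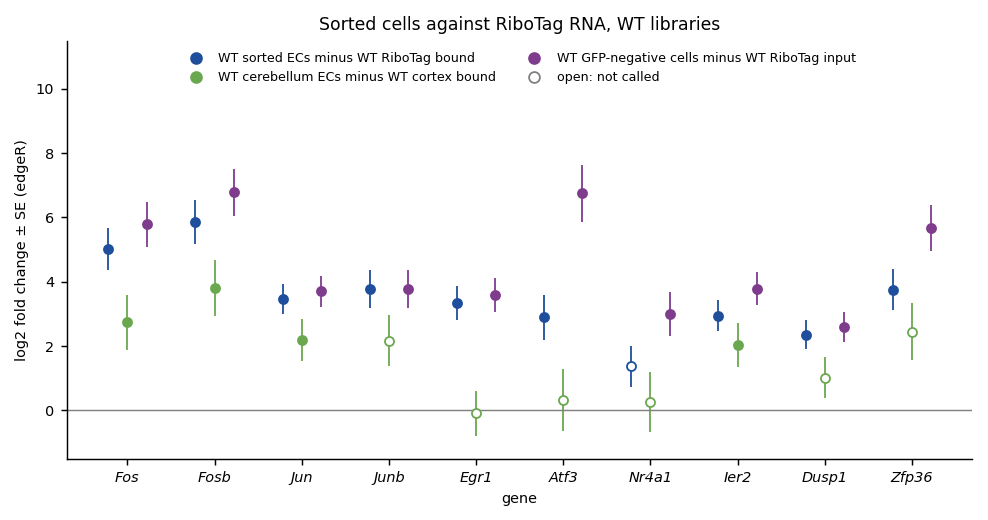
Log2 fold change ± SE (vertical axis, edgeR) of each gene between sorted and RiboTag RNA of WT mice, for ECs against bound RNA, cerebellum ECs against cortex bound RNA, and GFP-negative cells against input RNA, with open points for genes not called. Filled points lie at 2.02 or above, and Nr4a1 is open in both EC comparisons.

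Other genes of the same response were compared from lists, and 26.0% of all genes were called between sorted ECs and bound RNA. Of 13 other immediate early transcription factors, 5 were called higher and 0 lower in sorted ECs than in bound RNA. Their median was 1.28 against -0.27 over all genes, and Npas4 (4.24), Jund (1.93) and Klf6 (1.92) were among those called. Npas4 was near the floor, at 0.0246 to 2.42 TPM in sorted ECs and 0 to 0.984 in bound RNA. Its ranges overlapped, and its fitted size depends on the prior count. Of 18 other early regulators 11 were higher and 1 lower (median 1.86), with Ier3 at 4.25, the cytokine signaling inhibitor gene Socs3 at 3.65 and the NF-kappaB regulator gene Nfkbiz at 3.42. Of 10 heat shock genes 5 were higher and 1 lower (median 0.96). Hspa1b (9.26) and Hspa1a (6.89) are near-identical copies, so that their split is uncertain, and Hspb1 was 2.57 higher. Of 16 upstream kinases and transcription factors 4 were higher and 1 lower (median 0.07), near the share over all genes.

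Against input RNA, GFP-negative cells had 9 of the 13 other early transcription factors higher and 0 lower (median 2.73 against -0.11). Of all genes, 12.7% were called in this comparison. The neuronal activity gene Npas4 was 5.74 higher and Egr2 3.95 higher. Npas4 was at 0.113 to 68.3 TPM in GFP-negative cells and at 0 to 2.25 in input RNA. Fosl1 was called too, with 0 reads in some libraries of each kind, so its fitted size depends on the prior count. Of the 18 regulators 9 were higher and 1 lower (median 1.68), led by Socs3 (5.02), the antiproliferative gene Btg2 (4.31) and the NF-kappaB inhibitor gene Tnfaip3 (3.71). Of the heat shock genes 3 were higher and 0 lower (median 0.63), Hspa1b, Hspa1a and Dnajb1 (1.33). Of the upstream genes Crem (1.71) and Elk3 (1.24) were higher and Elk1 lower (-1.68), with a median of -0.18.

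The 5 protein-coding genes outside the list whose log2(TPM + 1) most resembled the mean of the 10 over the 40 libraries were Btg2 (r = 0.949), the splicing factor gene Srsf6 (0.944), Ifrd1 (0.924), the stress response factor gene Atf4 (0.920) and the AP-1 gene Fosl2 (0.912), from 5659 genes with a mean of at least 10 TPM. Their medians were higher in sorted than in RiboTag libraries, for example 46.2 against 3.65 TPM for Btg2 and 12.4 against 2.28 for Fosl2. The choice by likeness over the same 40 libraries largely fixed this direction, so it is no separate result.

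Within the sorted material, few of the 10 genes were called between ECs and GFP-negative cells of a tissue. In simulated data for WT anterior pituitary, 5.97% of genes changed 4-fold and 22.7% of those changed 8-fold were called. A gene that was not called may therefore still differ. In WT cerebellum, Ier2 was at 42.9 and 13.2 TPM in ECs and at 4.12 and 1.82 in GFP-negative cells (3.08 ± 0.78, adjusted p = 0.0141), and Dusp1 at 140.2 and 20.5 against 23.97 and 9.84 (2.07 ± 0.58, 0.0227). These were 2 calls of 10, where 11.3% of all genes were called. Both EC libraries of Ier2 were above both GFP-negative libraries, and for Dusp1 the second EC library lay below the first GFP-negative one. Without the second WT cerebellum GFP-negative library 0 were called, without the first library of either fraction 1 was, and without the second EC library 5 were. With only the 2 groups in the fit 1 was called.

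In stabilized cerebellum, GFP-negative cells had no read of Ier2 in either library while ECs had 525 and 90. At the floor of 3 counts over the group (0.0945 CPM), Ier2 was at least 126-fold higher in ECs. It was the 1 member called, against 17.2% of genes. Without either WT cerebellum EC library or the second stabilized GFP-negative library 4 were called, and without the first stabilized EC library 2 were. With a replicate block within each preparation 5 were called, and with only the 2 groups in the fit 0 were. Nr4a1 was at 5.85 and 0.0274 TPM in these ECs and at 6.81 and 0.506 in GFP-negative cells (-2.88 ± 1.05, 0.0677).

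In WT anterior pituitary, Dusp1 was at 240.2 and 343 TPM in ECs and 60.0 and 80.9 in GFP-negative cells (2.04 ± 0.57, 0.0253), the 1 call of 10 against 11.3% of genes. It was lost without the second EC library or either GFP-negative one, and 2 members were called without either WT cerebellum EC library, the first WT or either stabilized cerebellum GFP-negative library, or the first WT posterior pituitary EC library. With a replicate block within each preparation 2 were called, and with only the 2 groups in the fit 3 were. Jun was at 416 and 573 against 96.4 and 122 (2.06 ± 0.70, 0.0680). In the stabilized anterior pituitary 0 of the 10 were called by edgeR, 1 had an unadjusted p under 0.05 and DESeq2 called 0, where 8.29% of genes were called, while 1 was called with the block within each preparation and 2 with only the 2 groups in the fit.

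In posterior pituitary the called members were lower in ECs. In WT mice, Fosb was at 60.4 and 15.5 TPM in ECs and at 171 and 224 in GFP-negative cells (-2.63 ± 0.82, 0.0374), the 1 call of 10 against 14.5% of genes. This call was lost on leaving out any 1 of 9 libraries, among them the second library of each WT posterior pituitary fraction and all 4 of stabilized posterior pituitary, and with the block within each preparation 2 were called. In stabilized mice, Fosb was at 7.32 and 7.67 against 39.4 and 33.1 (-2.77 ± 0.83, 0.0369), Egr1 at 22.7 and 19.7 against 121 and 83.8 (-2.58 ± 0.67, 0.0162) and Nr4a1 at 43.6 and 18.8 against 273 and 181 (-3.52 ± 1.06, 0.0371). These 3 of 10 were lower in ECs, against 10.5% of genes called, and the groups did not overlap for any of them. Without any 1 of the 4 libraries compared, 0 or 1 stayed called, and with only these 4 in the fit 7 were. Stabilized posterior pituitary ECs also carried 198 to 255 TPM of 10 microglia and macrophage markers (9 higher than in GFP-negative cells, at 15.3 to 68.4), whose part in the result was not tested.

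The EC to GFP-negative difference was compared between tissues in WT mice. None of the 10 genes was called for cerebellum against anterior pituitary (2.97% of genes called), cerebellum against posterior pituitary (3.72%) or anterior against posterior pituitary (0.839%) by edgeR. An unadjusted p under 0.05 was found for 2, 4 and 1 members, and DESeq2 called 0, 3 and 0. For cerebellum against posterior pituitary, 3 were called without the second WT cerebellum EC library, and 1 without any stabilized cerebellum library or the first WT posterior pituitary EC library.

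In RiboTag RNA, bound and input fractions were compared in the same way. In WT cortex, 5 of 10 genes were higher in bound RNA, where 11.6% of genes were called. Atf3 was at 26.5 and 1.93 TPM against 0.278 and 0.222 (5.28 ± 1.02, 0.00343) and Zfp36 at 37.9 and 6.32 against 0.996 and 0.721 (4.17 ± 0.74, 0.00195). Dusp1 was at 104 and 13.4 against 6.83 and 9.03 (2.36, 0.0325), and Ier2 (1.85, 0.0204) and Jun (1.55, 0.0286) followed. For all 5, both bound libraries were above both input libraries.

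The other 5, Fos (-0.26), Fosb (-0.98), Egr1 (-0.69), Nr4a1 (0.12) and Junb (0.03), did not pass the test in WT cortex, and Egr1 was at 56.5 and 44.5 TPM in bound and 57.4 and 67.6 in input RNA. Without the first bound library, or the first or second input library, 2, 2 and 1 of the 5 calls stood, and with only the 2 groups in the fit 1 gene was called. Microglia and macrophage markers were also higher in bound RNA (10 of 10 markers, 1584 to 2327 TPM against 66.7 to 69.7), as were the endothelial markers (10 of 10), while neuron markers were lower (6 of 8, 1329 to 1681 against 2345 to 2693). The part of these in the result was not tested.

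In stabilized cortex, Ier2 was at 4.14 and 3.82 TPM in bound and 0.136 and 0.218 in input RNA (3.56 ± 0.54, 0.000275). Atf3 (4.03, from 1 and 3 input reads), Zfp36 (3.11) and Dusp1 (2.71) were called as well, 4 of 10 against 22.3% of genes. Egr1 missed the threshold (-1.96, 0.0534). Without the second input library 1 call stood, and without the first bound library 2 did. The microglia and macrophage markers were again higher in bound RNA (10 of 10, 1002 to 1141 TPM against 23.2 to 23.8).

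In WT choroid plexus, 2 of 10 genes were called higher in bound RNA, against 15.3% of genes. Jun was at 8.08 and 13.2 TPM against 1.07 and 1.38 (2.43 ± 0.46, 0.00228), and Ier2 at 2.07 and 3.30 against 0.283 and 0.347 (2.44 ± 0.52, 0.00497). When the first WT input library was left out 1 of these was called, and without either WT cortex bound library 4 members were. With a replicate block within each preparation 5 were called, and with only the 2 groups in the fit 8 were. Though the 8 others missed the threshold, their differences ran from 1.22 (Junb) to 2.51 (Atf3).

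In stabilized choroid plexus, 8 of 10 genes were called higher in bound RNA, against 17.8% of genes. Fos was at 58.8 and 10.3 TPM against 2.75 and 1.48 (3.13 ± 0.74, 0.00816), Atf3 at 23.2 and 5.71 against 0.657 and 0.277 (3.70 ± 0.92, 0.0108) and Jun at 23.2 and 12.9 against 2.20 and 1.46 (2.70 ± 0.46, 0.000979). The first bound library was the higher one for each of the 10 genes. Junb, Ier2, Nr4a1, Zfp36 and Fosb were called at 2.12 to 2.90, while Egr1 (1.30, 0.204) and Dusp1 (1.97, 0.0535) were not. Without that first bound library 3 were called, and without the first or second input library 4 and 2. The call of Fosb held in 13 of 23 settings. For Fosb the input values rest on 9 reads and 1 read. Microglia and macrophage markers were higher in bound than in input RNA of choroid plexus too (10 of 10 in each genotype), at 84.5 to 118 TPM against 6.92 to 8.17 in WT and 128 to 185 against 17.6 to 18.8 in stabilized mice, and their part in the result was not tested. The difference between cortex and choroid plexus in the WT bound to input step was called for 0 of 10 members (12.1% of genes called), with an unadjusted p under 0.05 for 3 and 1 called by DESeq2. Without the second WT cortex bound library 2 were called, and without the first, or either stabilized choroid plexus bound library, 1 was.

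Between WT tissues, the members called in sorted cells were lower in cerebellum than in pituitary. In ECs, Egr1 was at 70.4 and 10.5 TPM in cerebellum and 514 and 693 in anterior pituitary (-3.95 ± 0.76, adjusted p = 0.00733), the 1 member called where 5.26% of genes were. All 10 differences were negative, from -1.53 (Nr4a1) to -3.95, and 9 had an unadjusted p under 0.05. Between cerebellum and posterior pituitary ECs (4.40% of genes called) and between anterior and posterior pituitary ECs (0.994%), 0 of the 10 were called by edgeR and 0 by DESeq2, with 1 and 3 at an unadjusted p under 0.05. Leaving out the first WT cerebellum EC library, the calls rose from 1 to 8 against anterior pituitary and from 0 to 6 against posterior pituitary. Between the pituitary lobes, 1 was called without either WT cerebellum EC library. Pituitary endocrine markers summed to 32.6 to 35.7 TPM in cerebellum ECs, 4399 to 6844 in anterior pituitary ECs (8 of 8 higher) and 473 to 3353 in posterior pituitary ECs (3 of 8), and mural markers to 560 to 652 in cerebellum against 188 to 223 and 84.6 to 145. The part of these in the result was not tested.

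GFP-negative cells showed the tissue difference in most members. Against anterior pituitary, 9 of 10 genes were lower in cerebellum, where 8.77% of genes were called. Ier2 was at 4.12 and 1.82 TPM in cerebellum and 52.3 and 99.7 in anterior pituitary (-4.60 ± 0.69, 0.00129), Nr4a1 at 16.7 and 7.92 against 387 and 428 (-4.49 ± 0.73, 0.00181) and Egr1 at 34.4 and 10.4 against 286 and 392 (-3.85 ± 0.48, 0.000261). The groups did not overlap for these genes. Atf3 was not called (-1.91, 0.158), and the call of Zfp36 held in 12 of 18 settings.

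Against posterior pituitary 9 of 10 were lower too (9.88% of genes called), and Zfp36 was not (-2.46, 0.104). Nr4a1 had the largest difference (-5.18 ± 0.76, 0.000776), from 625 and 1094 TPM in posterior pituitary, and Fos was at 158 and 41.3 in cerebellum against 1006 and 657 (-2.87 ± 0.66, 0.0139). Without the second WT cerebellum GFP-negative library 4 and 3 genes stayed called in these comparisons, and without the first WT posterior pituitary library 5 did in the second. With only the 2 groups in the fit, 9 and 4 were called. Anterior and posterior pituitary GFP-negative cells differed at 0 of the 10 genes by edgeR and by DESeq2, with none at an unadjusted p under 0.05 and 1.67% of genes called, and 2 were called without the first WT posterior pituitary library. GFP-negative cells of the 3 tissues are different cell types. Astrocyte and oligodendrocyte markers were at 1945 to 7097 and 1179 to 3448 TPM in cerebellum against 54.2 to 98.9 and 9.71 to 11.8 in anterior pituitary (6 of 6 and 5 of 5 markers), and the part of this in the result was not tested.

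Cortex and choroid plexus RiboTag RNA of WT mice was compared as well. In input RNA, 7 of 10 genes were called, where 52.7% of all genes were. Egr1 was at 57.4 and 67.6 TPM in cortex and 0.789 and 0.669 in choroid plexus (4.87 ± 0.70, 0.000437), Fosb at 4.44 and 4.43 against 0.0538 and 0.0123 (5.66 ± 0.66, 0.000141) and Fos at 34.6 and 31.7 against 0.968 and 0.973 (3.55 ± 0.48, 0.000305). Junb (2.36), Nr4a1 (2.29) and Jun (1.04) were higher in cortex as well. Zfp36 was lower in cortex (-2.23, 0.000697) on TMM-scaled counts. Its TPM was at 0.996 and 0.721 in cortex and 0.693 and 0.759 in choroid plexus, and the share of TPM in protein-coding genes differs between these libraries as given above.

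In bound RNA, 2 of 10 were called against 29.7% of genes. Fosb was 2.88 higher in cortex (0.0386) and Egr1 2.65 higher (0.0109), with Egr1 at 56.5 and 44.5 TPM in cortex and 2.93 and 5.68 in choroid plexus. Without the first WT choroid plexus bound library 0 of these were called, and the call of Egr1 held in the other 13 of 14 settings. That of Fosb held in 6 of 14. It was lost without any 1 of the 4 WT libraries or either stabilized cortex library, with the replicate block and with a gene length offset. Neuron markers in bound RNA were at 1329 to 1681 TPM in cortex and 14.1 to 20.0 in choroid plexus (8 of 8 markers), and their part in the result was not tested.

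The last set of comparisons asked how the genes differed between stabilized and WT mice. The ratio of the mean shares, WT over stabilized, was 7.94 in cerebellum ECs, 3.71 in anterior and 3.46 in posterior pituitary ECs, and 8.14, 2.49 and 2.56 in the GFP-negative cells of the same tissues. It was 3.61 in cortex bound and 3.08 in cortex input RNA, and 0.373 and 0.631 in choroid plexus bound and input RNA. Some of these ratios rest on 1 library or on the denominator. Without the first WT library the ratio was 1.55 in cerebellum ECs, 3.98 in cerebellum GFP-negative cells, 2.06 in posterior pituitary ECs and 1.66 in cortex bound RNA, and without the second it was 14.3, 12.3, 4.86 and 5.56. In cortex input RNA it was 4.74 without the second stabilized library, and in choroid plexus bound RNA 0.712 without the first stabilized one. On nuclear protein-coding genes the ratio in cerebellum GFP-negative cells was 4.97. By share of estimated counts it was 5.31 there and 1.51 in posterior pituitary GFP-negative cells. Mitochondrial genes made up 55.3% and 72.3% of protein-coding TPM in stabilized cerebellum GFP-negative cells against 32.2% and 60.1% in WT, and 43.6% and 41.8% against 33.1% and 16.5% in posterior pituitary, and their part in the result was not tested.

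In sorted ECs, all 30 gene and tissue differences were negative, but 2 passed the test. In cerebellum, Egr1 was at 1.09 and 2.43 TPM in stabilized and 70.4 and 10.5 in WT ECs (-4.29 ± 0.78, adjusted p = 0.0272), and Dusp1 at 9.45 and 14.3 against 140.2 and 20.5 (-3.05 ± 0.55, 0.0272). Neither gene's groups overlapped, and 0.648% of genes were called. Nr4a1 had the largest difference (-5.47 ± 1.18, 0.0644), from 110 and 3 reads in stabilized and 5743 and 431 in WT libraries. Without the first WT cerebellum EC library, or the second stabilized one, or either WT anterior pituitary one, 0 were called, and without the second WT cerebellum EC library 8 were. With only the 2 groups in the fit 0 were called. The calls held in 12 (Egr1) and 11 (Dusp1) of 18 settings.

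Anterior pituitary ECs gave 0 calls of 10 by edgeR and 2 by DESeq2 (0.458% of genes called), although 9 had an unadjusted p under 0.05, and 8 were called with only the 2 groups in the fit. Without either WT cerebellum EC library 2 were called there, and 1 in posterior pituitary. Jun was at 131 and 58.8 TPM against 416 and 573 (-2.73 ± 0.76, 0.243), and Fos at 234 and 204 against 789.7 and 1238 (-2.04 ± 0.81, 0.613). The stabilized and WT libraries did not overlap for either gene. Posterior pituitary ECs gave 0 by edgeR and 3 by DESeq2 (1.79% of genes called), with 4 at an unadjusted p under 0.05. There Jun was at 32.6 and 26.9 against 456 and 164 (-2.90 ± 0.77, 0.0901). In the stabilized pituitary ECs, 8 of 10 microglia and macrophage markers were higher than in WT, at 160 to 244 TPM against 6.31 to 13.8 in anterior and 198 to 255 against 0.617 to 10.6 in posterior pituitary. Endothelial markers in posterior pituitary ECs were at 2051 to 2321 TPM in stabilized and 5176 to 7202 in WT mice (8 of 10 lower). The part of these in the result was not tested.

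In GFP-negative cells, which do not carry the recombined allele unless Pdgfb-CreER is active in them, cerebellum had 4 calls of 10, all lower in stabilized mice, where 0.760% of genes were called. Fosb was at 0.769 and 0.363 TPM against 18.7 and 5.50 (-4.04 ± 0.43, 0.00136), Egr1 at 4.95 and 1.99 against 34.4 and 10.4 (-2.22 ± 0.45, 0.0440) and Atf3 at 0.333 and 2.39 against 17.5 and 3.36 (-4.19 ± 0.88, 0.0493). Ier2 had 0 reads in stabilized and 269 and 124 in WT libraries, so it was at least 60.3-fold lower at the floor of 3 counts. The calls of Egr1 and Atf3 were lost without the first WT cerebellum GFP-negative library and without any 1 of the WT anterior, stabilized anterior or stabilized posterior pituitary libraries. They held in 6 and 5 of 18 settings. With only the 2 groups compared in the fit, 0 were called. The median difference was -2.41 over the 10 genes, also with Ier2 at its bound, and -0.26 over all genes. Microglia and macrophage markers were lower as well (8 of 10, 34.9 to 62.5 TPM against 95.4 to 144). The stabilized libraries held 19593463 and 12157485 estimated counts against 33096724 and 35930249 in WT, with the mitochondrial shares given above. The part of these in the result was not tested.

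The pituitary GFP-negative cells gave 0 calls of 10 in either lobe by edgeR. In anterior pituitary 0.0408% of genes were called, 2 members had an unadjusted p under 0.05 and DESeq2 called 0. In posterior pituitary these were 0.133%, 2 and 2. Jun was at 38.6 and 36.9 TPM against 96.4 and 122 in anterior (-1.39 ± 0.45, 0.675) and at 19.3 and 19.0 against 101 and 109.8 in posterior pituitary (-1.59 ± 0.46, 0.224). Its libraries did not overlap in either lobe. Junb was the 1 member with a positive difference in posterior pituitary (0.24, 0.970).

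RiboTag RNA of cortex was lower in a few members in stabilized mice. In input RNA, 3 of 10 were called, against 11.8% of genes. Fos was at 2.34 and 4.20 TPM against 34.6 and 31.7 (-1.98 ± 0.41, 0.0123), Fosb at 0.451 and 1.02 against 4.44 and 4.43 (-1.99 ± 0.46, 0.0185) and Egr1 at 2.07 and 8.94 against 57.4 and 67.6 (-2.16 ± 0.60, 0.0344). In none of these did the libraries overlap. A single call stood without either the first WT or the first stabilized input library. The call of Egr1 held in 8 of 15 settings and was lost without any 1 of the 4 WT input libraries, with the replicate block, with a gene length offset and with only the 2 groups in the fit. In bound RNA, Egr1 was the 1 member called (6.32% of genes), at 1.03 and 3.46 against 56.5 and 44.5 (-3.50 ± 0.65, 0.0158), and its call was lost without the first stabilized library. Without the second WT cortex library or either stabilized choroid plexus library 2 were called. With only the 2 groups in the fit, 4 were called in bound and 2 in input RNA.

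The WT cortex libraries are the 4 with the high protein-coding share of TPM given above, against 18.2% to 26.6% in stabilized cortex and choroid plexus, so that the TPM of a gene is on another footing in the WT cortex libraries. Among the markers, neuron genes were at 429 to 477 TPM in stabilized and 1329 to 1681 in WT cortex bound RNA (8 of 8 lower), and oligodendrocyte genes at 159 to 169 against 1124 to 1166 (5 of 5). In input RNA neuron genes were at 664 to 797 TPM against 2345 to 2693 (8 of 8 lower). Mitochondrial genes made up 3.41% and 3.60% of protein-coding TPM in stabilized against 18.2% and 20.7% in WT cortex bound RNA, and 22.5% and 24.9% against 38.5% or more in input RNA. The part of these differences between the libraries in the genotype result was not tested.

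Choroid plexus went the other way, with all 10 differences positive in both fractions and 0 called by edgeR. In bound RNA (0.852% of genes called) 4 members had an unadjusted p under 0.05, DESeq2 called 3, and 1 was called with only the 2 groups in the fit. Fos was at 58.8 and 10.3 TPM in stabilized and 6.89 and 5.74 in WT mice (2.58 ± 0.76, 0.174), and Junb at 9.01 and 6.73 against 0.751 and 2.50 (2.34 ± 0.59, 0.118). The libraries of the 2 genotypes did not overlap for these genes. In input RNA (0.106% of genes called) 4 had an unadjusted p under 0.05 and DESeq2 called 1. Junb was at 1.45 and 1.11 against 0.377 and 0.513 (1.49 ± 0.40, 0.425). Microglia and macrophage markers were higher in the stabilized input RNA (9 of 10, 17.6 to 18.8 TPM against 6.92 to 8.17), and their part in the result was not tested.

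**Figure D4:**
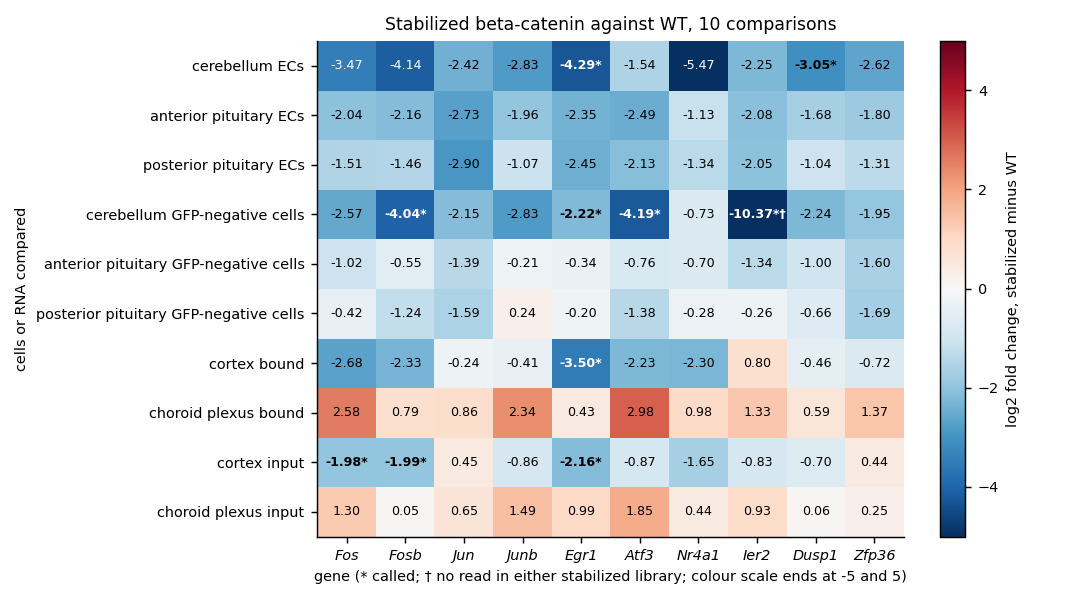
Log2 fold change of stabilized against WT (colour and printed number, edgeR) for the 10 genes (columns) in 10 comparisons (rows), with an asterisk for called genes and a dagger for Ier2 without reads in stabilized cerebellum GFP-negative cells. All EC differences are negative, and all choroid plexus differences are positive.

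Whether the genotype difference itself differed between tissues was tested in 8 interaction comparisons. Among ECs, 0 of 10 members were called by edgeR and 0 by DESeq2 for cerebellum against anterior pituitary (0.519% of genes called), cerebellum against posterior pituitary (0.927%) and anterior against posterior pituitary (0.128%), with 1, 2 and 0 at an unadjusted p under 0.05. Without the first stabilized cerebellum EC library 1 was called in each of the first 2, and without the second WT cerebellum EC library 2 in the second. Among GFP-negative cells, Fosb differed between cerebellum and anterior pituitary (-3.49 ± 0.55, 0.0331; 0.250% of genes called), and Ier2 between cerebellum and posterior pituitary (adjusted p = 0.0332, 0.408% of genes called). Between anterior and posterior pituitary 0 were called by either tool, none had an unadjusted p under 0.05, and 0.0051% of genes were called. Between cortex and choroid plexus, Fos differed in bound RNA (-5.25 ± 1.09, 0.0449; 2.15% of genes called) and in input RNA (-3.28 ± 0.65, 0.0206), and Junb in input RNA (-2.35 ± 0.53, 0.0308; 8.07%). Each of these 5 calls was lost on leaving out any 1 of several libraries, and that of Fos in bound RNA held in 5 of 13 settings. The call of Fosb was lost without any 1 of the 4 anterior pituitary libraries, and that of Fos in bound RNA without any 1 library of the fit but the second WT cortex and the second stabilized choroid plexus library.

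Each of the 10 genes had a peak of open chromatin at a start in every sorted EC library assayed by ATAC-seq, which cuts accessible DNA with a transposase. A peak enriched over 2 times its background, with a -log10 of q above 2, lay within 500 bp of an annotated start in each of the 12 libraries, and 50.3% to 58.0% of 21840 protein-coding genes had one in a library. The 8 genes of the promoter table had such a peak at their RefSeq start in all 12 libraries. At that start Nr4a1 had fold enrichments of 7.26 to 13.8 (median 11.2), Atf3 of 8.89 to 12.7 (10.9), Jun of 6.39 to 9.17 (8.06), Dusp1 of 5.58 to 8.07 (7.55), Fosb of 5.72 to 9.77 (7.15) and Fos of 5.22 to 9.73 (7.13). Junb, at 2.99 to 5.48, and Zfp36, at 2.92 to 4.13, had the lowest peaks. Egr1 and Ier2, taken at any annotated start, were at 5.34 to 8.62 and 3.69 to 6.06. Dusp1 and Nr4a1 each had a further annotated start with a peak in all 12 libraries. That of Dusp1, at base 26562128 of chromosome 17, lies far from the printed window and had 7.71 to 20.5. That of Nr4a1, at base 101254269 of chromosome 15, had 7.26 to 13.9. In the first WT cerebellum library the Dusp1 peak spanned bases 26561266 to 26561679, beside that start but not over it. Exons of Ergic1 overlap those of Dusp1 on the other strand, so this peak may not belong to Dusp1. The median height over all genes with a peak ran from 8.65 to 14.9 between libraries, so heights were not compared between groups. The RNA and ATAC-seq libraries are separate preparations.

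**Figure D5:**
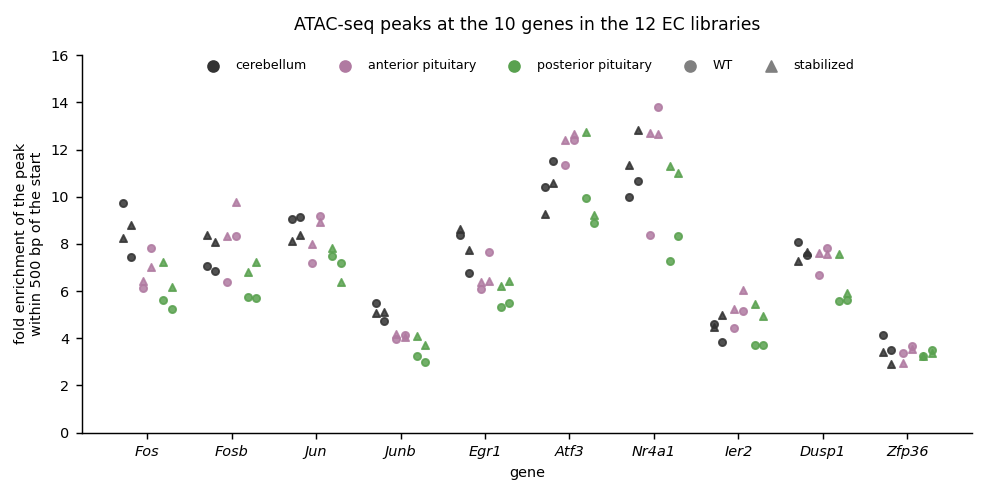
Fold enrichment (vertical axis) of the ATAC-seq peak within 500 bp of the RefSeq start (any annotated start for Egr1 and Ier2) in the 12 EC libraries, coloured by tissue, with WT as circles and stabilized as triangles. Every gene has a peak in every library, from 2.92 (Zfp36) to 13.8 (Nr4a1).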

How the data were processed

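RNA-seq was measured in 40 libraries (20 groups of 2) and ATAC-seq in 12 sorted EC libraries. For RNA, the authors deposited Salmon 0.10.2 tables per transcript, which hold estimated counts, TPM (transcript levels scaled to 1 fixed total in each library) and effective length in bases. For ATAC-seq, the authors deposited MACS2 2.1.1.20160309 peaks of each library, called after Bowtie2 2.3.2 alignment to mm10, with the fold enrichment as a ratio over local background and the q-value as -log10.

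Transcripts were summed per gene by GENCODE M21 (GRCm38), and estimated counts were rounded. Depth per library is given in the text, and estimated counts are not independent molecules. Genes passing edgeR's filterByExpr were scaled by TMM and fitted with edgeR 4.0.16 (R 4.3.3, limma 3.58.1) by the quasi-likelihood test, with 1 coefficient per group. Comparisons of methods used all 40 libraries, those of fractions the 24 sorted or 16 RiboTag libraries, and those of tissues and genotypes the 12 or 8 libraries of a fraction. Called genes had a Benjamini-Hochberg adjusted p below 0.05 over all genes tested and a fold of at least 2. The SE is the log2 fold change divided by the square root of F. Shares used protein-coding TPM. A promoter peak was enriched over 2 times, with a -log10 of q above 2, within 500 bp of an annotated start, and heights are those at the RefSeq start.

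The members and the other lists were chosen with earlier results of these data known. All members were described in every comparison. From each other list up to 3 called genes with the largest change in the method comparisons were named, and the 5 genes most like the members by Pearson r of log2(TPM + 1) with a mean TPM of at least 10. Pooled animals were replicates as labelled, and p-values measure only the spread between these samples, which may be technical. EBSeq, the study's test, was not used here.

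Alternatives were RLE scaling, DESeq2 1.42.0, no filter, a gene length offset, replicate blocks, fits of the compared groups only, leaving out each library (40 refits, with the dispersion trend of the full fit kept and a lone library assumed to vary like the others), other share denominators and other peak settings. A crossed pairing, peaks at the RefSeq start and other denominators for the genotype ratio were chosen after seeing the data. Each fit was tested on simulated data. For WT sorted ECs against bound RNA (20175 genes), 2.99%, 38.8% and 66.7% of genes changed 2-fold, 4-fold and 8-fold were called. These shares were 0%, 5.97% and 22.7% for WT anterior pituitary ECs against GFP-negative cells (20512 genes), 1.49%, 7.46% and 31.8% for genotypes in posterior pituitary GFP-negative cells (18817 genes), and 0%, 29.9% and 60.6% in posterior pituitary ECs (17098 genes). Python 3.11.15, pandas 2.3.3, numpy 2.4.6, scipy 1.17.1 and matplotlib 3.10.9 were used.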

Additional observations from a re-analysis of the deposited data

Results flagged for a closer look

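For 4 genes the genotype difference itself differed between tissues by the interaction term in edgeR's quasi-likelihood test, in 5 of the 80 gene and comparison pairs tested, where 27 had an unadjusted p under 0.05. In GFP-negative cells, the stabilized minus WT log2 difference of Fosb was lower in cerebellum than in anterior pituitary by -3.49. That of Ier2 was lower in cerebellum than in posterior pituitary by -10.11, a size that depends on the prior count because both stabilized cerebellum libraries had 0 reads. In RiboTag RNA, the difference of Fos was lower in cortex than in choroid plexus by -5.25 in bound and by -3.28 in input RNA, and that of Junb by -2.35 in input RNA. In bound RNA both stabilized libraries had less Fos than both WT libraries in cortex, and more in choroid plexus. The calls held in 11 of 17 settings for Fosb, 10 of 17 for Ier2 and 8 of 14 for Junb. Those of Fos held in 5 of 13 settings in bound and 9 of 14 in input RNA.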

How the results depend on the processing

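With 2 libraries a group, most calls between genotypes and sorted fractions rest on single libraries. Of 430 gene and comparison pairs 93 were called, and 37 of these were called in every setting run. The 9 calls in WT sorted ECs against bound RNA and the 10 in WT GFP-negative cells against input RNA were among those called in each of their 26 settings. Low reads limit Fosb, Atf3 and Ier2 in input RNA. In stabilized cerebellum they limit Ier2, Atf3 and Junb in GFP-negative cells (lowest 0, 4 and 4 reads) and Nr4a1 in ECs (lowest 3 reads).

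Calls over the 6 sorted fraction comparisons (8) became 15 with DESeq2, 31 with no filter, 16 with a replicate block within each preparation and 14 with only the groups compared. Interaction calls (5) became 17 with DESeq2 and 48 with no filter. Bound against input calls (19) became 29 with no filter. Calls between WT tissues in ECs (1) became 4 with DESeq2, 20 with no filter and 7 with the replicate block. Genotype calls in ECs (2) became 13, 29, 1 with a gene length offset, 4 with the replicate block and 8 with only the groups compared, where cerebellum gave 0 and anterior pituitary 8. Those in GFP-negative cells (4) became 2 with RLE, 10 with DESeq2, 14 with no filter, 2 with the length offset and 0 with only the groups compared. Those in RiboTag RNA (4) became 10, 14 with no filter and 7 with only the groups compared. The cause was not tested.

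By share of estimated counts, medians moved to 0.669% in WT ECs, 0.816% in WT and 0.528% in stabilized GFP-negative cells, and 0.0376% in WT and 0.0176% in stabilized input RNA. Without the 10 genes of highest TPM in the denominator the stabilized GFP-negative median was 0.315%.

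Leaving out each library gave 9 to 16 calls for ECs against bound RNA (13 over both comparisons), 10 to 10 for GFP-negative cells against input, 4 to 15 between sorted fractions, 3 to 10 interactions, 13 to 22 for bound against input, 1 to 15 between WT tissues in ECs, 7 to 18 in GFP-negative cells and 7 to 10 in RiboTag RNA, and 0 to 11, 2 to 5 and 2 to 5 between genotypes in ECs, GFP-negative cells and RiboTag RNA. Without the first WT cerebellum EC library 4 differences that were called in the main fit or the refit changed sign. Over all omissions, differences called in neither fit changed sign in 171 cases. Over the omissions, Fos ran from -0.15 to 3.65 and Jun from -0.25 to 3.34 in cerebellum ECs against cortex bound RNA, and Fosb from -2.21 to 2.32 against GFP-negative cells and from -3.24 to 1.44 against posterior pituitary ECs.

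Over all genes, deviations of libraries with the same replicate number had correlations of -0.112 to 0.0934, none over 0.1, and no label says that a number marks shared animals, so the numbers were not taken as pairs. The summed share was higher in the same-numbered library of both fractions in 6 of 6 sorted and 2 of 4 RiboTag preparations, a hint from the data only. The replicate block gave 3 genotype calls in RiboTag RNA as numbered and 5 with the choroid plexus input numbers crossed.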
